A study of Mus musculus with 12 samples.

Results

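The major urinary protein (Mup) genes Mup1, Mup2, Mup3, Mup7, Mup10, Mup12, Mup16, Mup17, Mup20 and Mup21 were followed in livers of Mettl5 wild-type and knockout mice. These 10 genes were selected on their levels in knockout against wild-type livers, because the family was lower in the knockout in earlier results from the same files. They are 10 of the 22 Mup genes in the table of input counts, which holds 55487 genes and also lists 27 Mup pseudogenes. Of the 10, 9 are among the 10607 genes of the normalized table that holds ribosome-protected fragments, and Mup2 is not. Because the choice used the knockout against wild-type contrast, every difference between genotypes in these 10 genes is given below as a description with no test.

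The WT group was 3 mice and the KO group 3 littermates of them, 1 pair from each of litters 1, 2 and 3. KO mice lacked exon 2 of Mettl5, the enzyme that places an N6-methyladenosine on 18S rRNA, in the whole body. The exon had been floxed in stem cells of a C57BL/6 and 129S6 hybrid, the line was bred to the B6 strain, and deletion came from the ubiquitous B6.C-Tg(CMV-cre)1Cgn/J transgene. The labels give neither ages nor sex, nor how many backcrosses preceded these mice. Each frozen liver was lysed with cycloheximide, which holds ribosomes in place, and gave 1 input library of whole RNA (WT_input, KO_input) and 1 library of ribosome-protected fragments, RPF (WT_RPF, KO_RPF), so 12 libraries in all. Xist had no read pair in any of the 6 input libraries, while the Y-linked Ddx3y was at 32.7 to 37.2 CPM (counts scaled to a common library size, with edgeR's TMM factors) and Eif2s3y, Kdm5d and Uty were detected in all 6. All 6 livers thus had the expression of male animals at these genes.

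MUPs are small lipocalins, barrel-shaped proteins that carry hydrophobic ligands. Mouse liver secretes them into blood, the kidney passes them into urine, and there they release volatile pheromones slowly and act as scent marks themselves. Their hepatic transcription is higher in males, under pulsed growth hormone, with further input from thyroid hormone, glucocorticoids and androgens. The genes lie in an array on chromosome 4. A core of near-identical central genes, here Mup1, Mup2, Mup7, Mup10, Mup12, Mup16 and Mup17, lies among more divergent peripheral genes, here Mup3, Mup20 and Mup21. Mup20 encodes darcin, the male urinary protein that attracts females, and Mup1 has been linked to glucose metabolism.

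The array ran from chr4:59956804-62150863 in the mm10 build, 2194 kb with all 22 Mup genes and 26 of the pseudogenes, and all 10 genes studied lie on its minus strand. How alike the genes are decides how far their reads can be told apart, so the coding sequences are shown first. Over the 45 pairs, coding sequences were 83.9% to 99.6% identical, with a median of 91.5%. The 21 pairs of central genes were 98.7% to 99.6% identical, central genes matched peripheral ones at 83.9% to 91.5%, and Mup3 matched Mup21 at 96.3%. Below are 60 bases of the coding sequence in exon 2, the stretch without a gap where the 10 genes differed most, at 20 positions. Capitals mark bases that differ from the most frequent base of the 10 genes at that position. The Mup1 stretch is chr4:60501355-60501414 and the Mup3 stretch chr4:62086873-62086932, both on the minus strand.
Mup1, Mup2, Mup10 and Mup12: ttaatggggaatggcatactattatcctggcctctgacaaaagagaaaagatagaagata
Mup7: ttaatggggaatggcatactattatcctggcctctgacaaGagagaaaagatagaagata
Mup16: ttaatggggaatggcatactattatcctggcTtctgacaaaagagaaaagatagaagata
Mup17: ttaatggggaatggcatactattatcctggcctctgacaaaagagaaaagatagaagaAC
Mup20: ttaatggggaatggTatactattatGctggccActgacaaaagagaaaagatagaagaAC
Mup21: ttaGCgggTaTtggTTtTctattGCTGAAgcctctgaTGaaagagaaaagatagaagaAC
Mup3: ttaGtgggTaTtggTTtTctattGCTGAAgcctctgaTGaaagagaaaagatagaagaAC
Even here 4 central genes were the same in every base, and the other central genes differed from them at 1 or 2 positions. Mup20 differed at 5 positions, Mup3 at 16 and Mup21 at 17.

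Only uniquely mapped reads are in the files, so a gene's measured level depends on how many of its read-length windows occur in no other Mup gene. Among 29-base windows of the coding sequence, the size of a footprint, 60.6% were found in no other Mup transcript for Mup21 and 54.6% for Mup3. This share was 5.66% for Mup17, 5.24% for Mup20, 3.13% for Mup16, 2.34% for Mup1 and for Mup12, 2.15% for Mup7 and 1.95% for Mup10, and no window of Mup2 was its own. With up to 2 mismatches, the limit used in mapping the footprints, 11.1% of windows stayed unique in Mup3 and 7.57% in Mup21, and none in the other 8 genes. How the mapper ranked a perfect against a near match is not stated in the sources used here. Input reads were pairs of 50 bases over the whole transcript, and 50-base windows were unique in 84.4% of positions for Mup3, 80.7% for Mup21 and 49.9% for Mup20. Among central genes they ranged from 21.9% in Mup17 through 14.6% in Mup12, 13.8% in Mup10, 9.34% in Mup16, 5.24% in Mup1 and 3.64% in Mup7 to 0 in Mup2. Each 50-base window was scored singly, so what the other read of a pair adds to unique mapping was not counted. Only 1 transcript per gene was searched, of 927 bases for Mup1, Mup2 and Mup10, whose counted exons hold 1584, 1336 and 1391 bases. Values of central genes are therefore uncertain as levels of single genes, and values of Mup3 and Mup21 rest on the most sequence of their own.

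Promoters are shown because 9 of the 10 genes were lower in KO together. RefSeq (GRCm38.p6) gave a promoter window, 250 bases before to 50 after the start, for 6 of the 10 genes, and a peripheral and a central one are printed with motif matches in capitals.
Mup3, chr4:62087268-62087567, minus strand: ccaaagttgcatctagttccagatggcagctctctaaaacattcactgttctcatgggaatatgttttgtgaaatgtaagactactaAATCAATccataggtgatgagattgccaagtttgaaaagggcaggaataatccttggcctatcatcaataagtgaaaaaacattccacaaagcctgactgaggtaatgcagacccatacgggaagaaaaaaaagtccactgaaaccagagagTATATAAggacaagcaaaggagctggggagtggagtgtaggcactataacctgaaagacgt
Mup17, chr4:61595783-61596082, minus strand: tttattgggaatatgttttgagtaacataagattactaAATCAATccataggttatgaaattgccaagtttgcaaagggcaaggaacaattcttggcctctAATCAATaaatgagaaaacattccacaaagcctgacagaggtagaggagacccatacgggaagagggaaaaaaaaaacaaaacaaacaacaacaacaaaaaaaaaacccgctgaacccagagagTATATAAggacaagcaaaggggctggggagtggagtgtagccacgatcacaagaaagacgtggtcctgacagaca
The capitals mark TATATAA, the element bound by TBP, and ATTGATT, the core bound by ONECUT factors, searched on both strands, so that AATCAAT is the second motif read backwards. TATATAA was in 5 of the 6 windows and in 3.24% of all 32851 promoter windows, and ATTGATT was in 6 of the 6 and in 2.86% of all. The 6 windows belong to paralogs of like sequence, so they are not separate observations. The Mup7 window, which lacked TATATAA, ended in bases that lie ahead of TATATAA in the Mup17 window. The STAT motif TTCNNNGAA was in none of the 6 and in 8.30% of all.

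Mettl5 checked the labels. Its input level was 2.88, 2.11 and 1.18 CPM in the WT mice of litters 1, 2 and 3 and 0.665, 0.703 and 0.601 in the KO mice, so the groups did not overlap. Mettl5 RPF were 58.4, 47.8 and 53.1 normalized reads in WT and 8.34, 5.53 and 9.56 in KO (log2 fold change -2.64 ± 0.36 SE, adjusted p = 0.00504, limma), and the call was lost without the KO mouse of litter 2 (adjusted p = 0.0522). Input libraries held 8326325 to 11825643 counted pairs, and RPF libraries 4623826 to 9184242 reads in the normalized table. The 18S gene, mitochondrial rRNA and Lars2 took 59.9% of the input counts of the litter 1 KO mouse and 72.4% to 77.7% in the other 5 mice. Hepatocyte markers summed to 18949 to 26510 CPM in WT and 19946 to 21703 in KO. Stellate cell markers summed to 66.0 to 75.1 in WT and 76.6 to 89.0 in KO, and of 4 tested in RPF none was called, where 0.489% of all genes were. With a block of litter 2 were called higher, Dcn (adjusted p = 0.0323, limma) and Reln (adjusted p = 0.0435, limma). Of all 8994 genes 293 passed under that block, 103 of them higher. With the GC trend also removed 1 of the 4 markers passed, and 66 of all 8986 genes. Erythroid markers summed to 46.8 to 60.5 in WT and 40.8 to 47.2 in KO. Kupffer, endothelial, cholangiocyte and lymphocyte marker sums overlapped between genotypes, with 3 of 5 lymphocyte and 1 of 5 cholangiocyte markers under 3 counts in every library, and no list had a marker at 0 throughout. The part of these cell types in the results was not tested. In whole liver, fewer hepatocytes and less Mup RNA per hepatocyte cannot be told apart.

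Mup3 carried most of the signal. Of the counts of the 10 genes in input it took 70.3% ± 1.8 (SD, n = 3) in WT and 79.1% ± 7.5 in KO. Per kilobase of exon, WT input levels were 1159 ± 11 CPM for Mup3, 250 ± 33 for Mup20, 143 ± 13 for Mup7 and 140 ± 15 for Mup21. Mup7 and Mup21 overlapped over the WT mice, and each of the other steps in that order was free of overlap. All other genes were at least as low as Mup17, at 14.9 ± 4.9 per kilobase, followed by Mup12, Mup1, Mup16, Mup10 and Mup2, where Mup17 overlapped Mup12, Mup12 overlapped Mup1, and Mup10 overlapped Mup2. Mup3 ranked 31 of the 20070 genes detected in WT input by level per kilobase, Mup20 ranked 86, Mup7 113 and Mup21 116, while Mup2 ranked 10246. For RPF per kilobase of coding sequence the WT order was Mup3 at 66573 ± 3629 normalized reads, Mup7 at 16244 ± 2684, Mup21 at 7208 ± 1608 and Mup20 at 2703 ± 731. Mup20 thus ranked 2 in input and 4 in RPF. These levels are not corrected for the share of unique windows.

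In input, the mean was lower in KO for 9 of the 10 genes, and in 7 of them every KO mouse lay below every WT mouse. The rule chose the genes on this contrast, and 4.34% of the 10057 genes tested in input had the 3 KO mice below the 3 WT mice. None of the 10057 genes passed adjusted p of 0.05 by edgeR (0% called, 348 genes at an unadjusted p under 0.05, and 1 call by DESeq2). Mup2 and Mup10 did not pass the filter on low counts. The values by mouse follow, first for peripheral and then for central genes, always as litters 1, 2 and 3.

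In input, Mup3 was at 1247, 1241 and 1225 CPM in WT and 1012, 808 and 1011 in KO. The WT mice were almost level with each other and the 3 KO mice all lay below them, by 23.8% in the mean (log2 fold change -0.39 ± 0.15 SE). In input, Mup20 was at 202, 232 and 264 in WT and 66.6, 79.8 and 135 in KO, again without overlap (-1.31 ± 0.26). In input, Mup21 was at 87.5, 107 and 90.6 in WT and 36.2, 84.8 and 76.6 in KO. Only the litter 1 KO mouse was far below WT for Mup21, and the other 2 lay under the lowest WT mouse by less (-0.53 ± 0.32, and -0.23 without the KO mouse of litter 1).

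Among central genes the spread over KO mice differed. In KO input, Mup7 was at 74.1 ± 56.0 CPM (SD, n = 3), Mup1 at 6.72 ± 4.73 and Mup17 at 5.27 ± 3.38. Relative to their means Mup12, at 5.12 ± 1.91, and Mup16, at 2.33 ± 0.86, were less spread. In input, Mup7 was at 147, 135 and 161 in WT and 25.9, 61.0 and 135 in KO, so that the litter 3 KO mouse reached the lowest WT mouse while the litter 1 KO mouse was far below (-1.005 ± 0.65). The Mup7 difference was -0.58 without the KO mouse of litter 1 and -1.78 without that of litter 3. In input, Mup1 was at 18.6, 15.9 and 15.0 in WT and 2.92, 5.22 and 12.0 in KO, in the same order of mice (-1.37 ± 0.54, and -2.07 without the KO mouse of litter 3). In input, Mup16 was at 6.31, 4.68 and 9.05 in WT and 1.53, 2.21 and 3.24 in KO without overlap, the largest fitted difference of the 8 genes that passed the filter (-1.60 ± 0.32). In input, Mup12 was at 13.99, 8.55 and 8.75 in WT and 2.97, 6.63 and 5.77 in KO (-1.06 ± 0.31). Mup17 departed from this order of mice, since its KO mice were at 8.75, 2.01 and 5.04 against 11.9, 10.4 and 19.0 in WT, with litter 2 lowest (-1.33 ± 0.56).

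The last pair of central genes was barely detected. Mup10 had 13, 10 and 5 read pairs in WT and 11, 9 and 8 in KO, which as CPM were 1.78, 1.17 and 0.492 against 0.563, 0.904 and 0.961, so the groups overlapped. Mup2 went the other way, with 1, 6 and 4 read pairs in WT and 15, 10 and 9 in KO, or 0.137, 0.702 and 0.393 against 0.767, 1.004 and 1.081 CPM. The 3 KO mice all lay above the WT mice for Mup2, as they did in 4.24% of the genes tested. The Mup2 transcript searched has no unique 50-base window, but it is shorter than the exons counted, and where the few Mup2 pairs mapped was not examined.

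**Figure D1:**
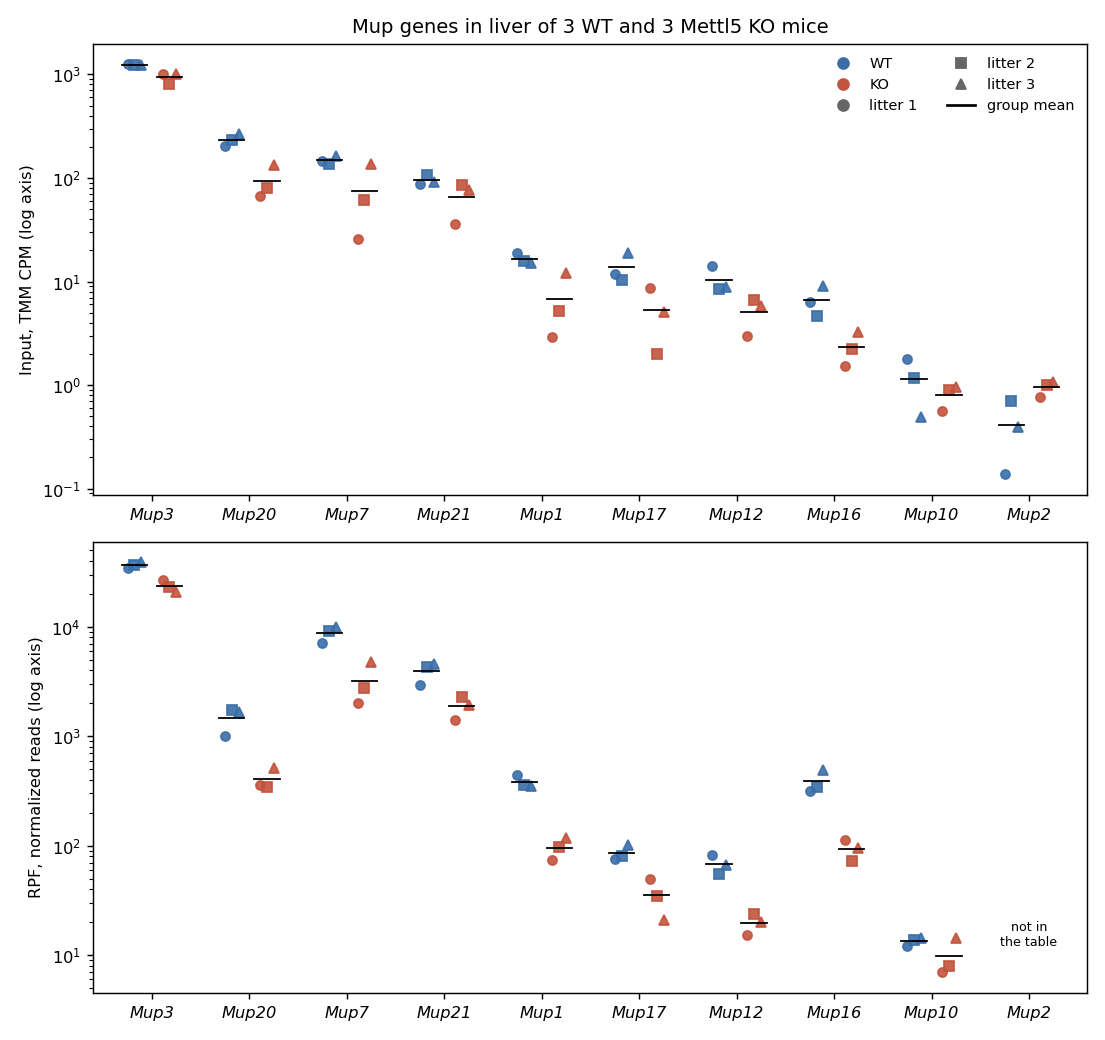
Level of each Mup gene in every mouse, input in TMM CPM (top) and RPF in normalized reads (bottom), both on log axes. Blue is WT, red is KO, the symbol gives the litter and the bar the group mean. Mup3 sits highest in both panels, KO mice lie below WT mice for most genes, the litter 3 KO mouse is near WT for Mup7 and Mup1 in input but not in RPF, and Mup2 lies higher in KO.

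RPF were lower in KO in the mean for all 9 genes measured, and in 8 of the 9 every KO mouse lay below every WT mouse. That separation was found in 12.9% of the 8994 genes tested in RPF, and 29 genes or 0.322% were called lower by limma. RPF of Mup3 were 34700, 36844 and 38702 normalized reads in WT and 26726, 23104 and 20866 in KO, with a narrow spread in both groups (-0.65 ± 0.13). RPF of Mup20 were 1011, 1721 and 1672 in WT and 359, 346 and 517 in KO, less than the lowest WT mouse by a wide margin (-1.83 ± 0.28). RPF of Mup21 were 2914, 4302 and 4526 in WT and 1416, 2289 and 1934 in KO (-1.06 ± 0.32). Mup21 was lower in KO in all 3 litters in both assays. Its log2 differences in litters 1, 2 and 3 were -1.04, -0.91 and -1.23 in RPF and -1.27, -0.33 and -0.24 in input.

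Among central genes, RPF of Mup7 were 7186, 9100 and 10029 in WT and 2014, 2763 and 4745 in KO (-1.54 ± 0.56). The litter 3 KO mouse, level with WT for Mup7 in input, had less than the lowest WT mouse in RPF. RPF of Mup1 were 440, 356 and 350.2 in WT and 73.7, 97.1 and 118 in KO (-1.997 ± 0.41). RPF of Mup16 were 319, 347 and 493 in WT and 112, 72.5 and 94.6 in KO (-2.04 ± 0.28). RPF of Mup12 were 82.8, 54.6 and 67.0 in WT and 15.3, 24.0 and 20.1 in KO (-1.74 ± 0.29). Each of these lay apart from WT in every mouse, and their fitted differences were the largest of the 9 apart from Mup20. RPF of Mup17 were 74.9, 80.2 and 102 in WT and 50.0, 34.4 and 21.0 in KO (-1.33 ± 0.47), and those of Mup10 were 12.2, 13.7 and 14.4 in WT and 6.95, 7.99 and 14.3 in KO (-0.48 ± 0.47). Mup10 was the exception to the separation, through the litter 3 KO mouse, and its difference was -0.77 without that mouse and -0.29 without the KO mouse of litter 1.

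Translation efficiency, the ratio of RPF to input in the same mouse, was lower in KO in the mean for 8 of the 9 genes, yet the 3 KO mice lay below the 3 WT mice in 1 of them only, Mup12. The share of all 8994 genes with that separation in the ratio was 7.34%, and no gene was called for TE by limma (0% called, 423 genes at an unadjusted p under 0.05, and none adjusted by edgeR on whole reads). The Mup12 ratio was 0.442, 0.477 and 0.575 in WT and 0.401, 0.273 and 0.261 in KO (log2 difference -0.66 ± 0.42). The Mup3 ratio, which rests on the most reads, was 2.08, 2.22 and 2.37 in WT and 2.05, 2.16 and 1.55 in KO (-0.22 ± 0.19). For Mup3 the KO mice of litters 1 and 2 were within or next to the WT range, and litter 3 was low. The litter 3 KO mouse had the lowest ratio of the KO mice in 8 of the 9 genes. The Mup7 ratio was 3.65, 5.03 and 4.66 in WT and 6.05, 3.42 and 2.63 in KO, where litter 1 lay above WT. Fitted TE differences of the 9 genes ran from -0.66 to 0.25 with a median of -0.42, against a median of -0.01 over all genes, and their median SE was 0.45. This fit treats the input and RPF libraries of a mouse as separate, so its SE is not the spread of the ratio within mice. With the mouse as a block the differences were the same, and the SE was 0.27 for Mup1, 0.14 for Mup3 and 0.29 for Mup7. Under that block 0 of 8994 genes were called for TE. Whether the ratio of these genes is lower in KO was not tested.

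Summed over the 10 genes, the input level was 1736, 1757 and 1794 CPM in WT and 1158, 1051 and 1386 in KO. The mean was 1762 ± 29 (SD, n = 3) in WT and 1198 ± 171 in KO, or 32.0% lower, with lower values in 3 of 3 litters. Reads shared by near-identical genes are missing from this sum too, so it is mostly Mup3 and holds little of the central genes. Summed RPF of the 9 genes were 46739, 52818 and 55955 normalized reads in WT and 30773, 28738 and 28330 in KO, 43.5% lower in the mean. The ratio of these sums was 2.01, 2.25 and 2.34 in WT and 2.07, 2.07 and 1.54 in KO, so only litter 3 of the KO mice left the WT range. Without Mup3 the input sum was 489, 515 and 568 in WT and 146, 244 and 375 in KO, which is 51.4% lower, and the RPF sum was 62.1% lower. The 7 central genes alone summed to 200.0, 177 and 214 CPM in WT and 43.4, 78.9 and 164 in KO, 51.6% lower in the mean. Their log2 differences within a litter were -2.20, -1.16 and -0.39. For Mup3 the same differences were -0.30, -0.62 and -0.28.

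**Figure D2:**
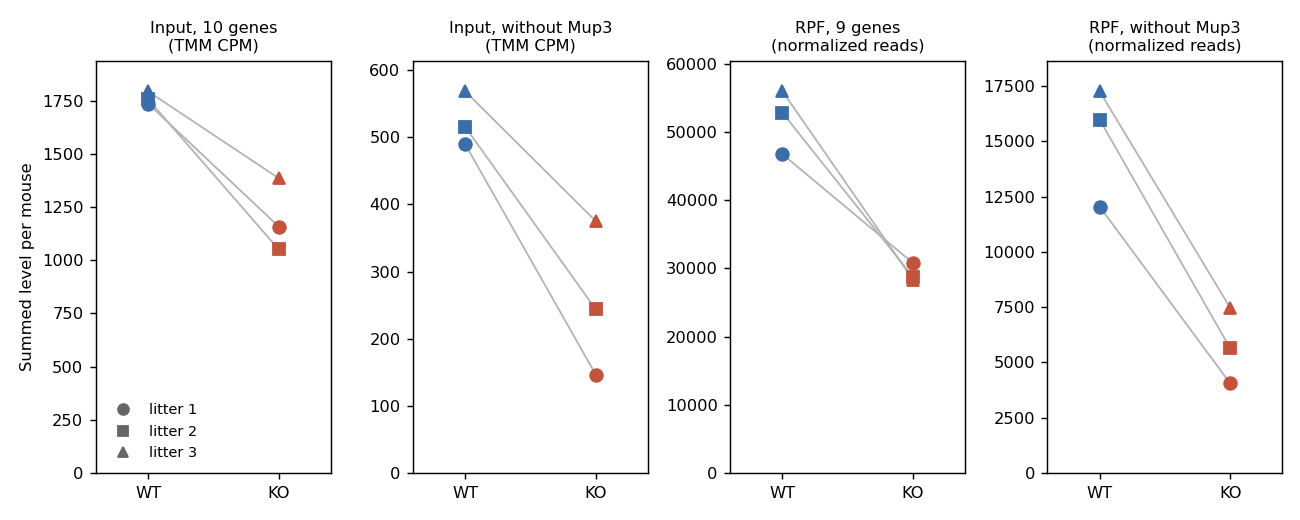
Summed level of the Mup genes in each mouse, with and without Mup3, for input (TMM CPM) and RPF (normalized reads), axes from 0. Lines join the WT and KO mouse of a litter, and each KO mouse is lower than its WT littermate in all panels, with the KO mice close together in summed RPF and spread out in input without Mup3.

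RPF against input within WT livers was not used to choose the genes and was tested. Of 9 genes, 4 had more normalized RPF than normalized input, 2 had less, and 3 did not pass (adjusted p, limma, over 8994 genes). Over all genes 31.0% were called higher and 26.5% lower in this comparison, and the median over all genes was 0.085 on the log2 scale. Mup7 and Mup16 were highest, with ratios of 4.45 ± 0.71 and 4.47 ± 0.94 (SD, n = 3) and log2 differences of 2.14 ± 0.56 SE (adjusted p = 0.00976) and 2.13 ± 0.28 (adjusted p = 8.78e-06). Mup21 at 1.603 ± 0.32 (adjusted p = 0.00124) and Mup3 at 1.15 ± 0.13 (adjusted p = 7.29e-07) followed. Mup20, the darcin gene, was at -1.11 ± 0.28 (adjusted p = 0.00447) and Mup12 at -1.004 ± 0.29 (adjusted p = 0.00700). No call was made for Mup1 at 0.78 (95% interval -0.14 to 1.71, adjusted p = 0.132), for Mup17 at -1.06 (-2.10 to -0.02, adjusted p = 0.0775) or for Mup10 at -0.023 (-0.99897 to 0.95, adjusted p = 0.972). With the mouse as a block, Mup1 (adjusted p = 0.00162) and Mup17 (adjusted p = 0.00574) also passed. Both calls also depended on which KO mice entered the shared estimate of spread, since Mup1 passed without the KO mouse of litter 1 (adjusted p = 0.0144) or 3 (adjusted p = 0.00414) and Mup17 without that of litter 1 (adjusted p = 0.0153) or 2 (adjusted p = 0.0127), as well as by edgeR on whole reads (adjusted p = 0.0343). Over all alternatives the adjusted p ranged from 0.00162 to 0.293 for Mup1, from 0.00574 to 0.217 for Mup17 and from 2.84e-05 to 0.0707 for Mup7. The Mup7 call was lost without the WT mouse of litter 2 (adjusted p = 0.0707) or of litter 3 (adjusted p = 0.0643).

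The order of these ratios was set beside the share of unique windows. The quotient of the coding 29-base share over the transcript 50-base share, on the log2 scale, was lowest in Mup20 at -3.25, Mup10 at -2.82, Mup12 at -2.64 and Mup17 at -1.95, and their RPF to input ratios were the lowest. The quotient was highest in Mup21 at -0.41, Mup3 at -0.63 and Mup7 at -0.76, and the ratios of Mup3, Mup21 and Mup7 were 2.22, 3.08 and 4.45, while Mup16, with the highest mean ratio, was at -1.58. Over the 9 genes the log2 ratio and the log2 of coding over transcript unique share had Pearson's r of 0.79 and Spearman's rho of 0.75, and over the 13 Mup genes with both values r was 0.79 and rho 0.60. The points share libraries and paralogous sequence, so this is a description. Mup14, with no unique coding window and 2.40% unique transcript windows, still had 863, 875 and 811 normalized RPF in WT, so exact windows of 29 bases do not fully describe what the mapper kept. The part of unique mapping in these ratios was not tested.

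**Figure D3:**
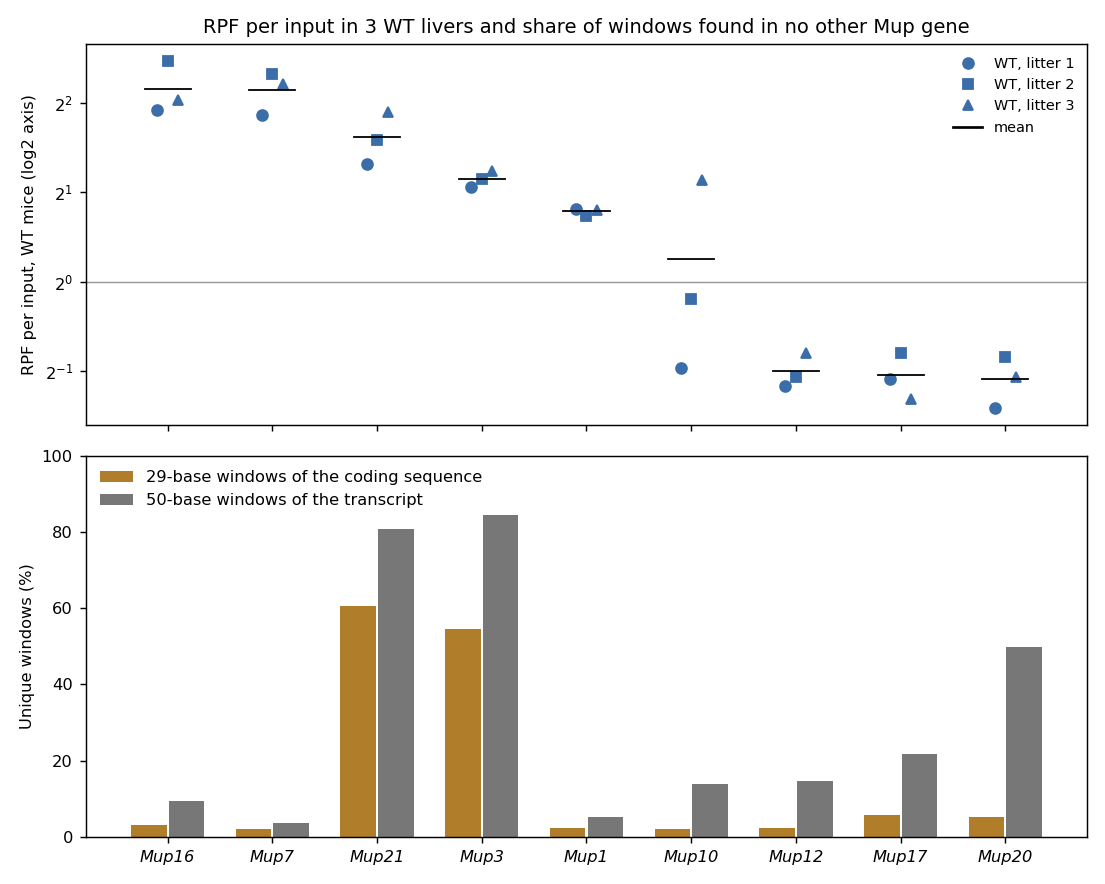
RPF per input in each WT mouse for the 9 Mup genes of the normalized table (top, log2 axis, bar at the mean) and the percent of 29-base coding and 50-base transcript windows found in no other Mup gene (bottom, axis from 0 to 100). Genes are in order of the mean ratio, from Mup16 at 4.47 to Mup20 at 0.468, and Mup20 on the right has the widest gap between its shares.

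Mup genes outside the 10 were read for the same pattern, again as a description, since the family was chosen on this contrast. Of 8 such genes with a mean of at least 10 input counts or with RPF values, all had a lower mean in KO input. In 2 of them KO lay below WT without overlap, against 4.34% of all genes tested. Of 6 with RPF values 5 had a lower mean, 4 without overlap, against 12.9% of all. Unique 29-base coding windows were 0 to 5.66% in Mup14, Mup8 and Mup13 and 61.3% to 67.4% in Mup4, Mup5 and Mup6. RPF of Mup14 were 863, 875 and 811 in WT and 291, 274 and 317 in KO (log2 fold change -1.53 ± 0.25), while its input was 90.6, 97.5 and 119 CPM in WT and 46.2, 50.7 and 107 in KO. As for Mup7, the litter 3 KO mouse was within the WT range of Mup14 in input. RPF of Mup4, a peripheral gene, were 431, 232 and 310.0 in WT and 132, 93.4 and 139 in KO (-1.39 ± 0.24), and RPF of Mup6, also peripheral, were 649, 302 and 332 in WT and 202, 201 and 183 in KO (-1.04 ± 0.31). Mup13 in RPF differed by -1.32 ± 0.24. Mup8, with at most 3.48 normalized RPF, was the gene with a higher RPF mean in KO. Input of Mup5, Mup8, Mup9, Mup11 and Mup13 was 0.541 to 0.878 times WT in the mean. The pseudogenes Mup-ps18 and Mup-ps21 in the array were at 0.823 and 0.716 times WT, with overlap, and Mup-ps22, on chromosome 11, at 0.450 times WT, where 1 WT mouse had 15.8 CPM and the other WT mice 2.11 and 2.95.

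Genes beside the array had differences of either sign. The 5 nearest tested protein-coding genes on each side, chosen after values of the array were known, had input log2 fold changes of -0.27 to 0.31 and none passed the test (adjusted p = 0.9987 for each, edgeR). Snx30, 52.1 kb before the array, was at 0.28 ± 0.33 and Slc31a2, 112 kb after it, at 0.07 ± 0.41 in input and 0.58 ± 0.33 in RPF (adjusted p = 0.456, limma). In size, that RPF difference exceeded only that of Mup10 (-0.48 ± 0.47) among the Mup genes fitted in RPF, with the opposite sign. The next smallest was that of Mup3 at -0.65. The copper transporter gene Slc31a1 was at -0.11 ± 0.14 in input and -0.19 ± 0.13 in RPF (adjusted p = 0.531, limma).

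**Figure D4:**
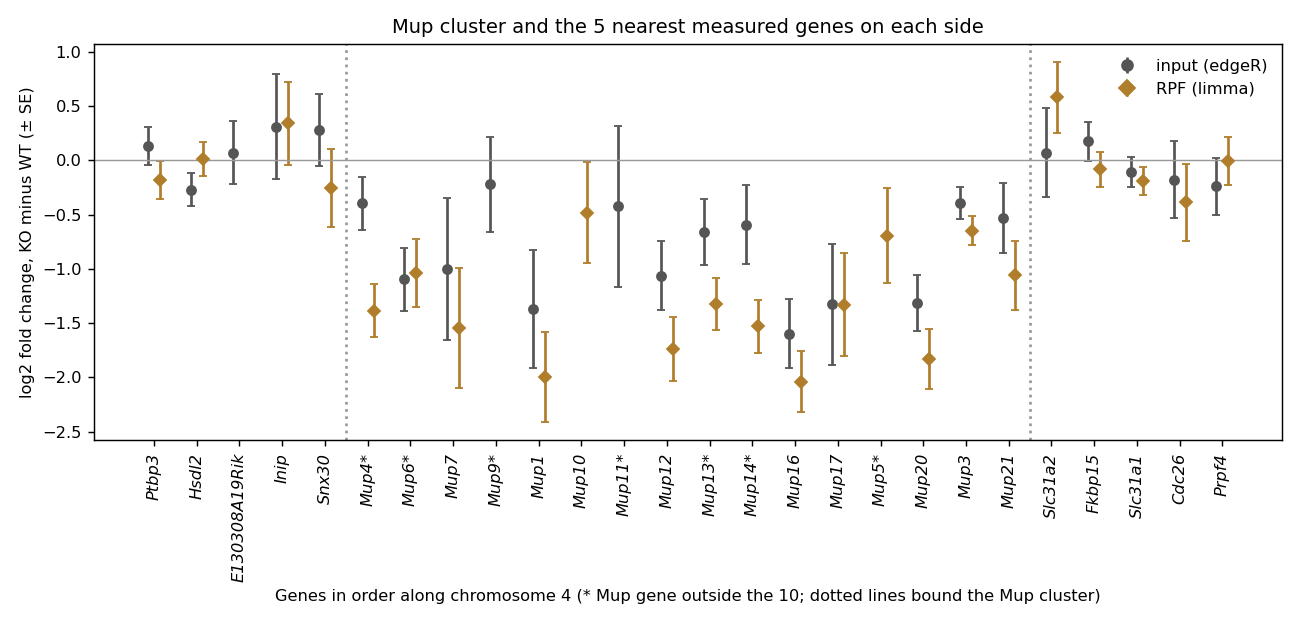
Log2 fold change of KO against WT (± SE) in input (grey circles, edgeR) and RPF (brown diamonds, limma) for Mup genes and for the 5 nearest tested genes on each side, in order along chromosome 4. Points of the Mup genes shown lie below 0, with RPF mostly below input, and the flanking genes lie around 0.

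Other liver genes with male-biased expression were taken as a list, since the Mup genes belong to that programme. In input, 15 of 18 tested list genes were lower in KO and none was called, with a median log2 fold change of -0.42 against -0.00026 over all genes. In RPF, 16 of 17 were lower with a median of -0.60 against -0.03 over all genes, and again none was called by limma, where 0.489% of all genes were called in either direction. With a replicate block of litter, 6 of the 17 passed as lower in RPF, namely Cyp4a12a (adjusted p = 0.000741), Gstp1 (adjusted p = 0.00183), Slco1a1 (adjusted p = 0.00903), Hsd3b5 (adjusted p = 0.0165), C6 (adjusted p = 0.0223) and Cyp2d9 (adjusted p = 0.0268), at log2 fold changes of -0.99 to -0.49, and 293 of all 8994 genes passed in either direction, 190 of them lower. With the GC trend removed under the same block, 3 of the 17 passed, and 66 of all 8986 genes. Without the KO mouse of litter 1, 3 of the 17 passed, and 228 of all 8994 genes, the most on leaving out any 1 mouse. Cyp2d9, a steroid hydroxylase, was at 131, 162 and 166 CPM in WT input and 107, 112 and 129 in KO (log2 fold change -0.40 ± 0.15, adjusted p = 0.9987, edgeR). Obp2a, a lipocalin of the same list, was at 1.65, 1.52 and 1.38 in WT and 0, 0.1004 and 0.240 in KO, and did not pass (adjusted p = 0.439, edgeR), but did without the filter on low counts (adjusted p = 0.0024), within a range of 0.0024 to 0.995 over the alternatives. Cyp7b1, an oxysterol hydroxylase named here after its values were seen, was at 78.2, 88.2 and 98.6 in WT and 28.3, 39.6 and 107 in KO, the order of mice seen for Mup7. Of 20 female-biased genes only Fmo2 was tested in input (0.38, adjusted p = 0.9987), at 1.28 to 2.58 CPM in WT and 1.44 to 3.12 in KO, and of 2 tested in RPF none was called.

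Genes of growth hormone signalling did not pass the test in any comparison, where 0% of all genes were called in input and in TE and 0.489% in RPF. Of the 18 tested in input 15 were higher in KO, with a median of 0.14 against -0.00026 over all genes. Of 17 in RPF 13 were higher, with a median of 0.22 against -0.03 over all genes. The receptor gene Ghr was at 148 to 161 CPM in WT and 143 to 153 in KO (-0.08 ± 0.13), the kinase gene Jak2 at 6.59 to 8.09 and 4.44 to 7.88, the transducer Stat5b at 10.4 to 17.5 and 13.8 to 17.7, and the target Igf1 at 176 to 187 and 164 to 191 (0.01 ± 0.14). Prlr, the prolactin receptor gene, was at 17.4 to 19.7 in WT and 18.7 to 36.9 in KO (0.58 ± 0.22, adjusted p = 0.9987), and Igfbp3, a carrier of IGF, at 2.33 to 4.33 and 4.22 to 4.81 (0.49 ± 0.27). The feedback genes Cish and Socs2, named after their values were seen, varied between mice of a genotype, with Socs2 at 13.7, 9.60 and 12.0 in WT and 31.5, 4.72 and 28.9 in KO and Cish at 2.61, 6.20 and 0.492 in WT and 7.52, 0.1004 and 0.360 in KO. The part of this variation in the Mup levels was not tested.

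Of transcription factors linked to Mup or liver gene transcription, none of 19 was called in input, RPF or TE, with medians of -0.06, 0.09 and 0.20. Over all genes 0%, 0.489% and 0% were called, with medians of -0.00026, -0.03 and -0.01. Zhx2, a regulator of liver genes that include Mup genes, was at 5.27 to 7.68 CPM in WT and 4.82 to 5.53 in KO (-0.29 ± 0.22). Cebpa was at 74.8 to 79.4 and 57.9 to 67.9 (-0.25 ± 0.13), and Thra, a thyroid hormone receptor, at 3.56 to 3.64 and 3.41 to 5.77 (0.40 ± 0.25). Under the litter block 1 of the 19, Nfib, passed as lower in RPF (adjusted p = 0.0270), where 293 of 8994 genes passed, and none of the 19 passed once the GC trend was also removed. Onecut1, whose motif core is printed above and which was named after its values were seen, was at 10.0, 9.83 and 1.77 in WT and 10.7, 1.41 and 0.841 in KO.

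Other lipocalins and secreted liver proteins show how far the difference extended. None of 6 other lipocalins was called in input, where 0% of all genes were, and all 6 were lower in KO with a median of -0.09. Orm1, an acute-phase lipocalin, was at 54.7, 61.1 and 53.7 in WT and 34.2, 42.0 and 45.5 in KO (-0.48 ± 0.14, adjusted p = 0.9987) and at -0.71 in RPF (adjusted p = 0.0788, limma). Rbp4, the retinol carrier, was at 817 to 873 and 737 to 843 (-0.08), and Orm2 and Orm3 were under 1.1 CPM throughout. Of 5 Serpina1 genes, another multigene family of liver, none was called, and all 5 were lower in input with a median of -0.14, including Serpina1b at -0.14 and the male-biased Serpina1e at -0.43. Of 25 secreted plasma proteins, 15 were lower and 10 higher in input, with a median of -0.03, and none was called. Serpina3k was at 1271, 1766 and 1651 in WT and 1024, 956 and 1345 in KO (-0.50 ± 0.18, adjusted p = 0.9987), and Gc, the vitamin D carrier, at 1063 to 1267 and 959 to 1005 (-0.25 ± 0.14). In RPF both passed with the litter block (adjusted p = 0.0152 for Serpina3k and 0.0231 for Gc), as did Azgp1 (adjusted p = 0.0410), so 3 of the 25 passed where 293 of 8994 genes did, and none of the 25 passed once the GC trend was also removed.

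The 5 genes outside the family whose levels were most like the summed Mup level over the 12 libraries, after centring within each assay, were Kyat3 (Pearson's r of 0.95), Apob (0.94), Cyp2d9 (0.93), Grb14 (0.93) and Hao1 (0.93), among 8980 genes. Kyat3 makes an aminotransferase of kynurenine metabolism, Apob the protein of VLDL, Grb14 an adaptor of insulin signalling and Hao1 a peroxisomal glycolate oxidase. RPF of Kyat3 were 1162, 1122 and 1179 in WT and 879, 870.4 and 837 in KO, a smaller difference than in the Mup genes. The libraries share genotype and litter, so these r values are a description.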

How the data were processed

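The members and gene lists were chosen with earlier results of these data known. The deposited input counts are whole read pairs per gene. Before deposit the authors used BBDuk for trimming, STAR against the mm10 genome for alignment and featureCounts for unique pairs on the gene's strand, so overlapping antisense genes were told apart. For RPF they took read 1 of 25 to 34 bases, removed rRNA and mapped with RiboToolkit, with 2 mismatches and a single location, without removing duplicates. The signal in the authors' deposited table is reads divided by a factor per library, with no gene length. In all 12 columns 100% of values were whole multiples of 1 read. No gene of that table has under 1 read in any library. Mup2 is absent from it although each input library held at least 1 Mup2 pair, and its RPF reads are not known. The log2 fold changes and p-values of that table, from the authors' own comparison, were not used.

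Input was fitted with edgeR 4.0.16 (R 4.3.3, TMM, filterByExpr, robust quasi-likelihood, genotype), and SE was derived from the size of the fold change and its F statistic. RPF, TE and RPF against input in WT were fitted with limma 3.58.1 (trend, robust) on log2(value + 1), keeping genes whose mean reached 10 in each assay, with 4 group means over 12 libraries. Folds on that scale understate changes of low genes. p-values are two-sided, adjusted by Benjamini-Hochberg over all genes tested. Counting error and, since no molecular identifiers were used, duplicates limit low genes. The design assumed normalized values, and edgeR on whole reads was run beside it. Named genes are the 10 members, other Mup genes with a mean of at least 10 counts or in the table, Mettl5, and from each list those past adjusted p 0.05 in input, RPF or TE, else the 2 lowest p in input, plus core regulators, sex-linked genes and 4 lipocalins. Labels give littermates the same number, so numbers mark litters. Deviations from group means of same-litter mice correlated at 0.0816 to 0.127 in input and 0.144 to 0.242 in RPF, those of other pairs at -0.117 to 0.0169 and -0.239 to 0.0813. Fits were tested on simulated data. Alternatives were RLE and DESeq2 1.42.0, other filters and pseudocounts, centring, a GC trend, blocks and leaving out each mouse. Windows were compared with 78 transcripts of 49 Mup genes and pseudogenes of GENCODE M21, whose coordinates equal the files' for 10 of 10 members.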

Additional observations from a re-analysis of the deposited data

How the results depend on the processing

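The 8 members fitted in input and the 9 in RPF had a lower value in KO under every alternative run, but leaving out 1 mouse moved the size by over 1.5 times for Mup1, Mup7 and Mup21 in input and Mup10 in RPF, as given above. Input calls were 0 as reported and 30 without a count filter, 2 with the replicate block, 1 with DESeq2 and 0 to 21 on leaving out a mouse. RPF calls were 44, against 293 with the replicate block, 7 with the GC trend removed and 0 to 228 on leaving out a mouse, the highest without the KO mouse of litter 1 and the lowest without that of litter 2, with 9 without the WT mouse of litter 2, 16 and 11 without the WT and the KO mouse of litter 3 and 28 without the WT mouse of litter 1. RPF against input in WT gave 5168 calls, 3261 with a mean of at least 50 and 4249 to 5226 on leaving out a mouse, and centring moved its median over all genes from 0.085 to 0.22. No gene was called for TE under any alternative. The summed difference of -0.56 (log2) ranged from -0.67 to -0.47 in input on leaving out a mouse. Within litters 1, 2 and 3 it was -0.58, -0.74 and -0.37 by TMM. As CPM of the counts outside 18S, mitochondrial rRNA and Lars2 it was -0.35, -0.73 and -0.52, so which litter differed least depended on the scaling. TE of Mup10 turned to 0.031 with edgeR on whole reads, TE of Mup7 to 0.046 without the KO mouse of litter 3, and over the alternatives TE ranged from -0.56 to 0.41 for Mup10, from -0.55 to 0.046 for Mup7 and from -0.33 to 0.66 for Mup17. RPF against input in WT for Mup10 turned to 0.11 with centring and ranged from -0.55 to 0.42 over the alternatives. With the GC trend removed, the RPF differences of all 9 members were smaller in size. That of Mup3 was -0.32 in place of -0.65 and that of Mup21 -0.72 in place of -1.06. The Mup20 difference was -1.52 in place of -1.83 and the Mup1 difference -1.73 in place of -1.997. The GC trend was not removed in any fit of TE. The cause of these shifts was not tested. The replicate block of litter changed no call of RPF against input in WT for the 9 Mup genes, and their differences between genotypes are given without a test under any setting. Mup2 and Mup10 had 1 to 15 input read pairs a library, and the parts of depth and of unique mapping in this were not tested.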
